A study of Rattus norvegicus with 10 samples.

Results

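Collagens are the proteins that bear most of the load in the matrix between heart cells, and they reach that matrix only after a chain of modifying steps. The genes described here are the collagen chains and the enzymes and helpers that hydroxylate, fold, trim and cross-link them, 54 genes measured by 76 probe sets, out of 14217 named genes on the array. They were chosen by symbol alone. A probe set counted where its only gene symbol was that of a collagen chain or of Lox, Loxl1 to Loxl4, P4ha1 to P4ha3, Plod1 to Plod3, Serpinh1, Pcolce, Pcolce2, Bmp1 or Adamts2, and a gene took the mean of its probe sets. Among the 54 were 11 fibrillar chains, 7 basement membrane chains, 23 other collagen chains and 13 processing genes. A single probe set measured 35 genes, 16 had 2 and 3 had 3. Adamts2, Pcolce2, Loxl4, Col4a3, Col28a1 and Col6a4 were not analysed here.

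Hearts came from inbred male Fischer-344 rats fed standard chow, with no drug treatment or altered gene named in the labels. There were 5 young arrays at 6 months, numbered 1, 2, 3, 4 and 6, and 5 old arrays at 24 months, numbered 2 to 6. RNA was hybridised to the Affymetrix Rat Genome 230 2.0 array, on which each probe set reads a short stretch of a transcript. The sample protocols name the whole heart and the series text the ventricles, so the labels leave the presence of atria unsettled. Whether every array stands for its own rat is not spelled out either, so p-values speak for the spread among these arrays, which may be technical.

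All values are log2 values, with the base inferred, and each probe set is centred on its median over the 10 arrays. They therefore show how arrays differ for 1 gene, and levels of different genes cannot be compared. The difference given for a gene is old minus young, ± its standard error (SE), n = 5 per age. A gene is said to have risen or fallen where limma gave an adjusted p under 0.05 over all 14217 genes. Over all genes 11.9% passed, 6.77% upward and 5.09% downward, and the median difference was -0.0050. Array medians lay between -0.0097 and 0.0093. Of 9 cardiomyocyte markers all were in the brightest of 3 approximate signal classes, which were read from the numerical step of the data and are uncertain for single values. In whole tissue, fewer cells of a type and less RNA per cell cannot be told apart.

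A collagen molecule is 3 chains wound into a triple helix. Prolyl hydroxylases stabilise the helix, lysyl hydroxylases mark the sites of later cross-links, and the chaperone encoded by Serpinh1 accompanies the chains through the secretory pathway. Outside the cell the propeptides of fibrillar collagens are cut off, and lysyl oxidases then join neighbouring molecules. Types I and III form the fibrils that surround heart muscle bundles, type IV forms the sheet-like basement membrane around each muscle cell and vessel, and the remaining collagens decorate fibrils, form beaded filaments or build short-chain networks. Fibroblasts make most of the fibrillar collagen of the heart.

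The short-chain genes Col8a1 and Col8a2, whose products form the network collagen type VIII, were among the members that differed most, so the bases just before their start sites are shown. The stretch before Col8a1 is 200 bases long and lies at chr11:56246582-56246781, plus strand. That before Col8a2 is 120 bases long, at chr5:143870649-143870768, plus strand. Beside them stand the 76 bases between the start of Col4a1 and that of Col4a2, chr16:84885521-84885596, which the 2 genes share because they are read in opposite directions from it. It is shown because those chains of 1 basement membrane molecule did not pass the test. The sequences are RefSeq's, build GRCr8, and capitals mark the GC box, GGGCGG on either strand, where CCGCCC is its reverse complement.
Col8a1: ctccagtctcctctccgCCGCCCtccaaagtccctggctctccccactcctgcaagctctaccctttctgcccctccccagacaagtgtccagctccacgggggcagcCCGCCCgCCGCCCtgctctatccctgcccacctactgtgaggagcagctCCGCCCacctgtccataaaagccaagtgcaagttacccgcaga
Col8a2: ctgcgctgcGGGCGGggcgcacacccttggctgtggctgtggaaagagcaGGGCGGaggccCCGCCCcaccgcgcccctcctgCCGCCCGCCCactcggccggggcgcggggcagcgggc
between Col4a1 and Col4a2: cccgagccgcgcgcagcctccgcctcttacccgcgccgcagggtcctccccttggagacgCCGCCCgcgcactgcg

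The stretch of Col8a1 holds 4 such hexamers and that of Col8a2 holds 5, with overlapping matches counted, against 1 in the space between the type IV genes. These stretches differ in length. In the 200 bases before each start, Col8a1 held 4, Col8a2 5, Col4a1 1 and Col4a2 2. A start site entry was found for 42 of the 54 genes, of which 7 had risen. In the 200 bases before the start, 59.5% of these 42 held a GC box, against 28.6% of 33469 windows of equal length in the table. It was in 5 of the 7, and lacking in the windows of Loxl1 and Col6a1. The CCAAT motif, on either strand, was in 8 of the 42 and in 29.2% of all windows, and in 0 of the 7. TATAAA, read on either strand, was found in 7.14% against 10.4%. TGANTCA, the motif named AP-1, was found in 2.38% against 4.97%, and its 1 holder, Col6a1, had risen. At least 4 GC boxes were present in 9.52% of the 42 and 2.80% of all windows. The 4 genes were Col8a1, Col8a2, Plod1 (4) and P4ha3 (6), and the last of these, with most, had a lower mean in old hearts (-0.15) and did not pass the test. The shares of the 42 count 1 window per gene. Those of all windows count every start site entry, of which a gene such as Col24a1 has several, so the units differ. These are letter matches, and binding was not measured.

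In old hearts 8 of the 54 genes rose, 14.8% against 6.77% of all genes, and 0 fell, against 5.09%. The 8 were the cross-linking enzyme gene Loxl1, Col8a1, Col8a2, Col14a1, the lysyl hydroxylase gene Plod2, Col6a6, the propeptide removal gene Pcolce and Col6a1. At an unadjusted p under 0.05, 13 were higher (24.1%, against 14.3% of all genes) and 2 lower (3.70%, against 1706 of the 14217 genes). By class, 5 of 23 other collagens (21.7%) and 3 of 13 processing genes (23.1%) rose. So did 0 of 11 fibrillar chains and 0 of 7 basement membrane chains, which in classes this small is near the 6.77% of all genes. At the unadjusted threshold, 1 fibrillar chain, Col5a3, was lower and 1 basement membrane chain, Col18a1, was higher. The median difference was -0.0056 in fibrillar chains, 0.013 in basement membrane chains, -0.014 in other collagens and 0.11 in processing genes. Of the processing genes 12 of 13 had the higher mean in old hearts, against 6852 of all 14217 genes. The exception was P4ha3 (-0.15), named after its value was seen. In Bmp1, Loxl2 and P4ha2 the probe sets had opposite signs. Values of the 2 ages did not overlap in 7 of the 54 genes (against 9.91% of all genes). In 6 of them every old array was above every young one (11.1% of the 54, against 5.13% of all genes). In Col9a3 (-0.097, adjusted p = 0.190), also picked out after the values were seen, every old array was below.

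**Figure D1:**
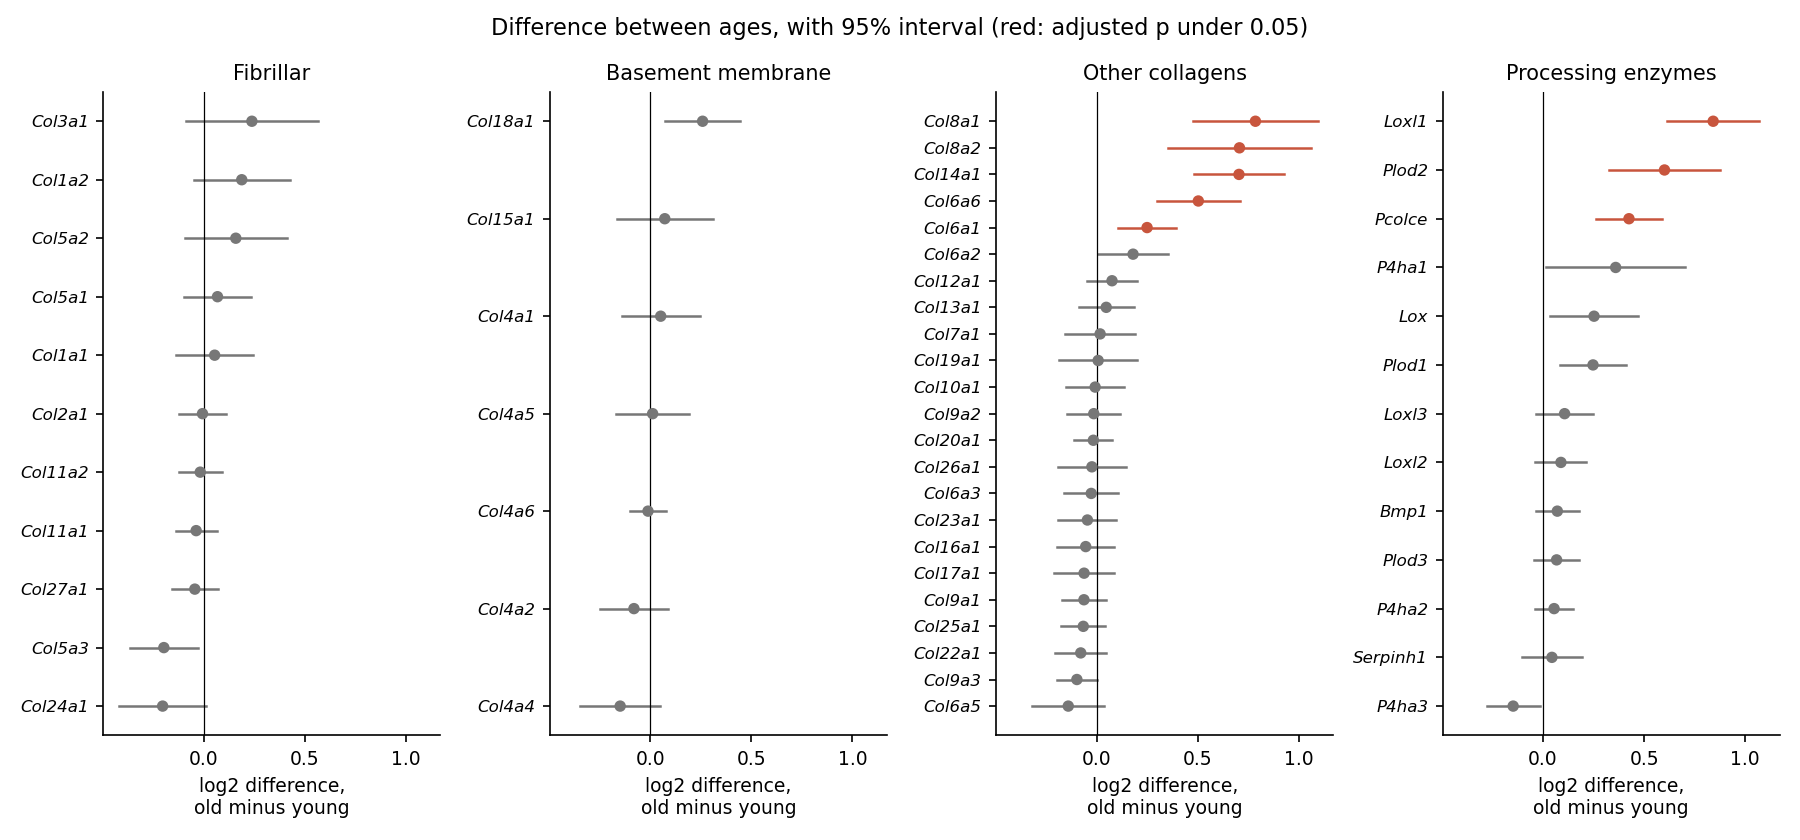
Old minus young difference on the log2 scale for each of the 54 genes, with its 95% interval from limma, in 4 panels by class. Points in red passed an adjusted p of 0.05; 5 lie among the other collagens, 3 among the processing genes and 0 in the fibrillar and basement membrane panels.

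None of the 11 fibrillar chains passed the test. Col1a1 and Col1a2 encode the chains of type I collagen, the main load-bearing collagen of the heart wall. Col1a1 lay at 0.14, -0.17, -0.050, -0.037 and -0.029 in young replicates 1, 2, 3, 4 and 6, and at -0.24, -0.024, 0.25, 0.16 and -0.018 in old replicates 2, 3, 4, 5 and 6, the order used for every gene below. Old replicate 2 was the lowest array of all and old replicate 4 the highest, so the young values fell within the old range. The difference was 0.054 ± 0.09 SE (adjusted p = 0.747), with a 95% interval of -0.14 to 0.24. Without old replicate 4 it was -0.0019 (adjusted p = 0.991). Its 2 probe sets gave opposite signs, -0.13 ± 0.10 SE and 0.23 ± 0.08 SE, and neither passed the test. Col1a2 lay at 0.062, -0.19, -0.12, -0.030 and -0.000076 in young and -0.21, -0.096, 0.40, 0.32 and 0.25 in old arrays. Old replicates 4, 5 and 6 were above every young array, and old replicate 2 was below every one. Without old replicate 4 the difference was 0.12 and without old replicate 2 0.27. Over all arrays it was 0.19 ± 0.11 SE (adjusted p = 0.306, 95% interval -0.048 to 0.43), and its probe sets gave -0.025 and 0.40.

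Col3a1, the single chain of type III collagen that forms finer fibres with type I, spread most widely among these. It lay at 0.15, -0.27, -0.15, 0.073 and -0.10 in young and -0.33, -0.073, 0.30, 0.50 and 0.50 in old arrays. Again old replicates 4, 5 and 6 exceeded all young arrays and old replicate 2 was the lowest of the 10. The difference of 0.24 ± 0.15 SE did not pass (adjusted p = 0.355, 95% interval -0.088 to 0.57), and the old SD of 0.37 was larger than the young SD of 0.17. The difference was 0.16 without old replicate 5 and 0.37 without old replicate 2. Col5a1 and Col5a2 encode chains of type V collagen, which starts fibrils and limits their width. They differed by 0.068 and 0.16 (adjusted p = 0.622 and 0.436). Without old replicate 4 these were 0.023 and 0.080, and without old replicate 2 0.13 and 0.25. For both gene means, old replicates 4, 5 and 6 were above every young array and old replicate 2 below every one. The 2 probe sets of Col5a1 had opposite signs, -0.035 and 0.17. In the first, old replicates 4 (0.040) and 5 (-0.066) were below the highest young array (0.059).

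Col1a1, Col1a2, Col3a1, Col5a1 and Col5a2 were the 5 fibrillar chains with a probe set in the brightest signal class. All 5 had the higher mean in old hearts, by 0.054 to 0.24, and in all 5 old replicate 2 was the lowest old array. Single bright probe sets, though, were lower in old hearts for Col1a1 (-0.13), Col1a2 (-0.025) and Col5a1 (-0.035). Others were higher, for Col1a2 (0.40), Col3a1 (0.24) and Col5a2 (0.085 and 0.23). The other 6 fibrillar chains, which are better known from cartilage or as minor chains, all had the lower mean. Among them Col24a1 (-0.20, adjusted p = 0.222) and a further type V chain, Col5a3, (-0.20, adjusted p = 0.125) had the lowest differences of all 54 genes. Young replicate 2 stood apart from the other young arrays in Col5a3, which was at -0.13 without it, and Col24a1 was at -0.12 without old replicate 6. The split by signal class was made after the values were seen, and nothing was tested with it. The cartilage chains Col2a1, Col11a1 and Col11a2 differed by -0.0056, -0.037 and -0.017.

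**Figure D2:**
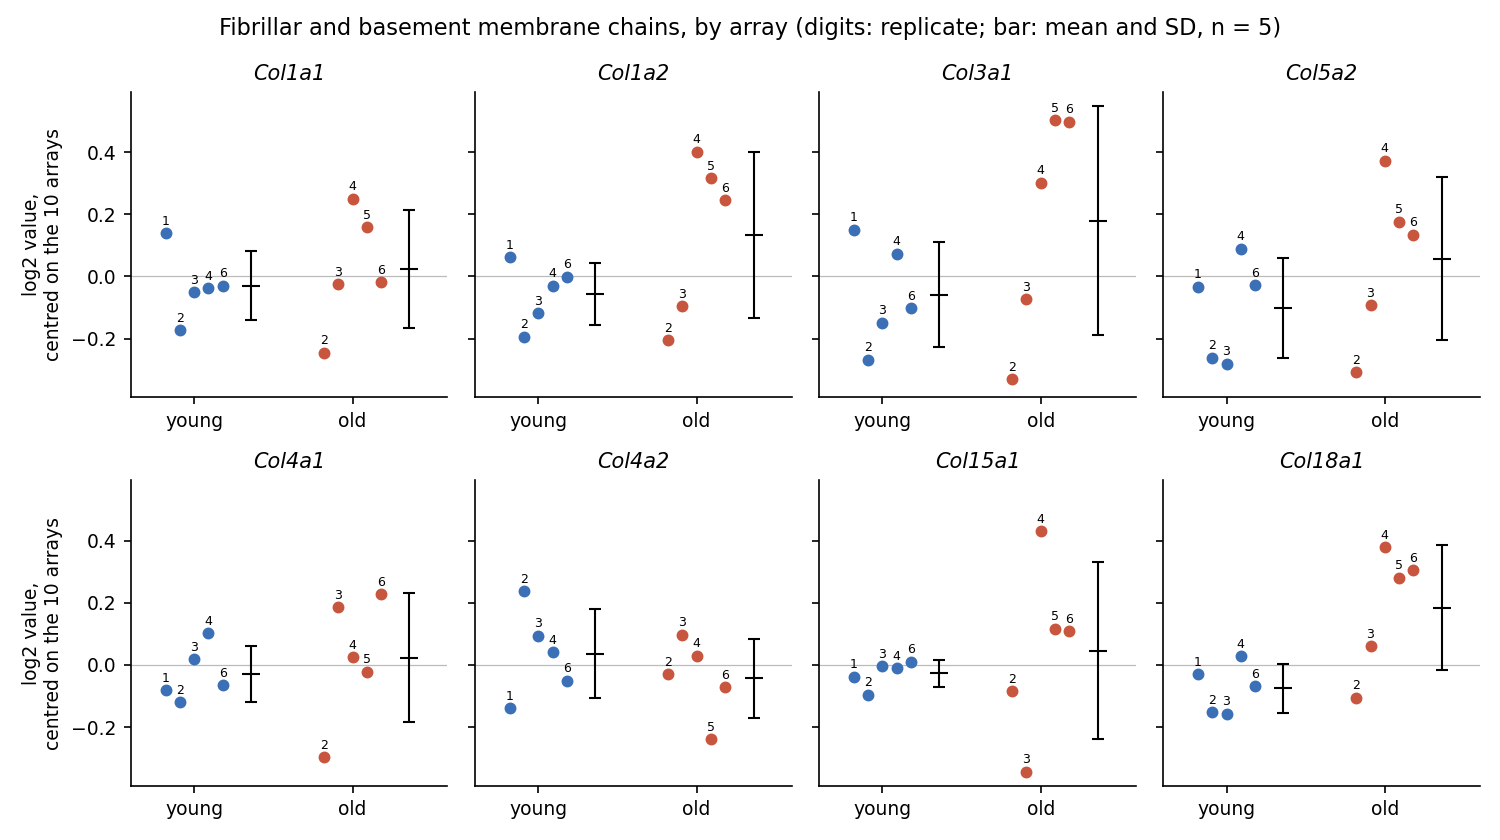
Centred log2 values of 4 fibrillar chains (top) and 4 basement membrane chains (bottom) on each array, with the replicate number above each point and the mean and SD of each age (n = 5) as a bar. In Col1a2 and Col3a1 old replicates 4, 5 and 6 lie above the young arrays and old replicate 2 below them; the ages overlap in all 8 panels.

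In the basement membrane class, Col4a1 and Col4a2 encode the chains of the type IV molecule found in nearly every basement membrane. Col4a1 lay at -0.082, -0.12, 0.019, 0.10 and -0.064 in young and -0.30, 0.19, 0.024, -0.021 and 0.23 in old arrays. Col4a2 lay at -0.14, 0.24, 0.095, 0.042 and -0.050 in young and -0.029, 0.097, 0.029, -0.24 and -0.072 in old arrays. Both ages overlapped in each gene, and old replicate 2 was lowest for Col4a1 but not for Col4a2. The differences were 0.053 ± 0.09 SE and -0.080 ± 0.08 SE (adjusted p = 0.761 and 0.573), with 95% intervals of -0.14 to 0.25 and -0.25 to 0.090. The 2 probe sets of Col4a1 gave -0.053 and 0.16. Without old replicate 6 Col4a1 was at 0.0016, without old replicate 2 at 0.13, and Col4a2 was at -0.030 without young replicate 2. Col4a4, a chain of the kidney and inner ear form of type IV, had the lowest difference of the class (-0.15 ± 0.09 SE, adjusted p = 0.342), and was at -0.074 without young replicate 2. Over the 5 type IV chains alone the median was -0.010, and 0 passed the test at either threshold.

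Col15a1 and Col18a1 encode the multiplexins, basement membrane collagens whose released end fragments restrain vessel growth. Col18a1 lay at -0.030, -0.15, -0.16, 0.028 and -0.067 in young and -0.10, 0.061, 0.38, 0.28 and 0.30 in old arrays. All old arrays but replicate 2 were above every young array. Its difference of 0.26 ± 0.09 SE stayed short of the threshold (adjusted p = 0.0697), and without old replicate 2 it was 0.33 (adjusted p = 0.0103). Without old replicate 4 it was 0.21, and with 1 array left out the adjusted p reached 0.157 at most. Col15a1 lay at -0.037, -0.096, -0.0039, -0.010 and 0.010 in young and -0.084, -0.34, 0.43, 0.12 and 0.11 in old arrays. The young arrays were close together, while old replicate 3 was the lowest of the 10 and old replicate 4 the highest. The difference was 0.073 ± 0.11 SE (adjusted p = 0.729), and without old replicate 4 it was -0.023. Its 2 probe sets gave -0.051 and 0.20. Old replicate 3 was at -0.71 in the first and at 0.023 in the second.

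Among the other collagens the largest differences were in type VIII, a short-chain collagen made in vessel walls and other tissues. Col8a1 lay at -0.58, -0.77, -0.22, -0.42 and -0.081 in young and 0.16, 0.081, 0.37, 0.74 and 0.51 in old arrays. Col8a2 lay at -0.35, -0.24, -0.32, -0.057 and -0.33 and 0.078, 0.057, 0.31, 0.83 and 0.96. In both chains every old array was above every young one, and old replicates 2 and 3 were the lowest old arrays. Col8a1 rose by 0.79 ± 0.14 SE (1.72-fold, adjusted p = 0.00539) and Col8a2 by 0.71 ± 0.16 SE (1.63-fold, adjusted p = 0.0160). The old values of Col8a2 spread over an SD of 0.42, against 0.12 in young. The remaining short-chain gene, Col10a1 of growth plate cartilage, was in the dimmest class and differed by -0.0067.

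Col14a1 encodes a fibril-associated collagen that sits on the surface of type I fibrils. It lay at -0.14, -0.41, -0.52, -0.23 and -0.25 in young and 0.31, 0.14, 0.26, 0.62 and 0.63 in old arrays, with no overlap. The rise was 0.70 ± 0.10 SE (1.63-fold, adjusted p = 0.00219), and its 2 probe sets, 0.74 and 0.67, both passed the test on their own. Col12a1, the closest relative of Col14a1 in domain make-up, lay at -0.11, -0.040, 0.051, -0.020 and -0.0050 in young and 0.15, 0.17, -0.061, -0.021 and 0.026 in old arrays. Old replicates 2 and 3 were its highest arrays. It differed by 0.077 ± 0.06 SE (adjusted p = 0.435). Of the 9 fibril-associated chains, 1 rose, and the class median was -0.016.

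Type VI collagen forms beaded filaments close to the cell surface, from an alpha 1 and an alpha 2 chain with a further chain that varies. Col6a1 lay at 0.0015, -0.026, -0.16, -0.13 and -0.16 in young and -0.0015, 0.036, 0.28, 0.28 and 0.19 in old arrays. Old replicate 2 fell just below young replicate 1, and the other old arrays were above all young arrays. The rise of 0.25 ± 0.07 SE (1.19-fold, adjusted p = 0.0291) was the smallest of the 8. It did not pass the threshold without old replicate 4 (adjusted p = 0.0635), 5 (0.0785) or 6 (0.0658) or young replicate 3 (0.0752), 4 (0.0593) or 6 (0.0644). Col6a2, named after its value was seen, differed by 0.18 (adjusted p = 0.169). Col6a3, the usual further chain, differed by -0.026 ± 0.06 SE (adjusted p = 0.837), with young replicate 6 apart from the other young arrays. Col6a6, an alternative to Col6a3, lay at -0.36, -0.30, -0.35, 0.016 and -0.24 in young and 0.24, -0.016, 0.30, 0.50 and 0.24 in old arrays. Young replicate 4 was above old replicate 3, the only overlap. Col6a6 rose by 0.50 ± 0.09 SE (1.42-fold, adjusted p = 0.00613).

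Cross-linking enzymes showed the largest single difference. Loxl1, a lysyl oxidase known chiefly for its part in elastic fibres, lay at -0.31, -0.51, -0.49, -0.30 and -0.25 in young and 0.25, 0.36, 0.35, 0.87 and 0.52 in old arrays. Every old array was above every young one. The rise was 0.84 ± 0.10 SE (1.79-fold, adjusted p = 0.00119). Lox, the lysyl oxidase that cross-links both collagen and elastin, lay at -0.013, -0.23, -0.059, -0.30 and -0.14 in young and -0.28, 0.13, 0.20, 0.35 and 0.12 in old arrays. Of the old arrays 4 were above all young arrays, and old replicate 2 was lower than all young arrays but replicate 4. Its difference of 0.25 ± 0.10 SE did not pass (adjusted p = 0.126, 95% interval 0.035 to 0.47), and without old replicate 2 it was 0.35 (adjusted p = 0.00926). Without old replicate 5 it was 0.19, and with 1 array left out the adjusted p reached 0.272 at most. Loxl2 and Loxl3 differed by 0.089 and 0.11.

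Of the lysyl hydroxylases, Plod2 acts on the telopeptides, the short ends where cross-links form. Its values were -0.094, -0.43, -0.28, -0.024 and -0.11 in young and 0.024, 0.16, 0.65, 0.61 and 0.63 in old arrays. No old array was below a young one, and old replicates 4, 5 and 6 were the highest. Plod2 rose by 0.60 ± 0.13 SE (1.52-fold, adjusted p = 0.0109). Plod1, which acts on the helical part, was at -0.18, -0.30, -0.22, -0.14 and 0.11 in young and 0.025, -0.025, 0.16, 0.14 and 0.22 in old arrays. Young replicate 6 was higher than old replicates 2 and 3. Its difference of 0.25 ± 0.08 SE lay just short of the threshold (adjusted p = 0.0539). Without young replicate 6 its adjusted p was 0.0142, and without old replicate 3 it was 0.0377. Without young replicate 2 its difference was 0.21, and with 1 array left out the adjusted p reached 0.128 at most. Plod3 differed by 0.068.

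The prolyl hydroxylase gene P4ha1, catalytic subunit of the enzyme that stabilises the helix, was at -0.14, -0.42, 0.036, -0.036 and -0.18 in young and 0.037, -0.36, 0.39, 0.31 and 0.67 in old arrays. Old replicate 6 was the highest, and old replicate 3 was the lowest but for young replicate 2. The difference was 0.36 ± 0.16 SE (adjusted p = 0.168, 95% interval 0.017 to 0.70), and without old replicate 3 it was 0.50 (adjusted p = 0.0195). Without old replicate 6 it was 0.24, and with 1 array left out the adjusted p reached 0.347 at most. P4ha2, another catalytic subunit, differed by 0.055 ± 0.04 SE (adjusted p = 0.480). The chaperone gene Serpinh1 was at 0.024, -0.040, -0.031, -0.016 and -0.027 in young and -0.077, -0.20, 0.16, 0.13 and 0.11 in old arrays. Old replicates 2 and 3 were below every young array and old replicates 4, 5 and 6 above. Its mean difference was 0.044 ± 0.07 SE (adjusted p = 0.733), 0.010 without old replicate 4 and 0.10 without old replicate 3.

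Pcolce encodes an enhancer that speeds the removal of the carboxyl propeptide of fibrillar procollagens, and Bmp1 encodes the proteinase it assists. Pcolce was at -0.16, -0.19, -0.31, -0.28 and -0.052 in young and 0.052, 0.19, 0.14, 0.40 and 0.35 in old arrays. Its ages did not overlap, and it rose by 0.43 ± 0.07 SE (1.34-fold, adjusted p = 0.00476). Bmp1 differed by 0.071 ± 0.05 SE (adjusted p = 0.408), and its 2 probe sets had opposite signs, -0.040 and 0.18. In all, 19 genes had several probe sets. In 11 of these the probe sets had opposite signs, and in 0 did 1 pass the test and another not. The 25 members not picked by the rule for named genes differed by -0.15 to 0.18, and 7 of them had the higher mean in old hearts.

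**Figure D3:**
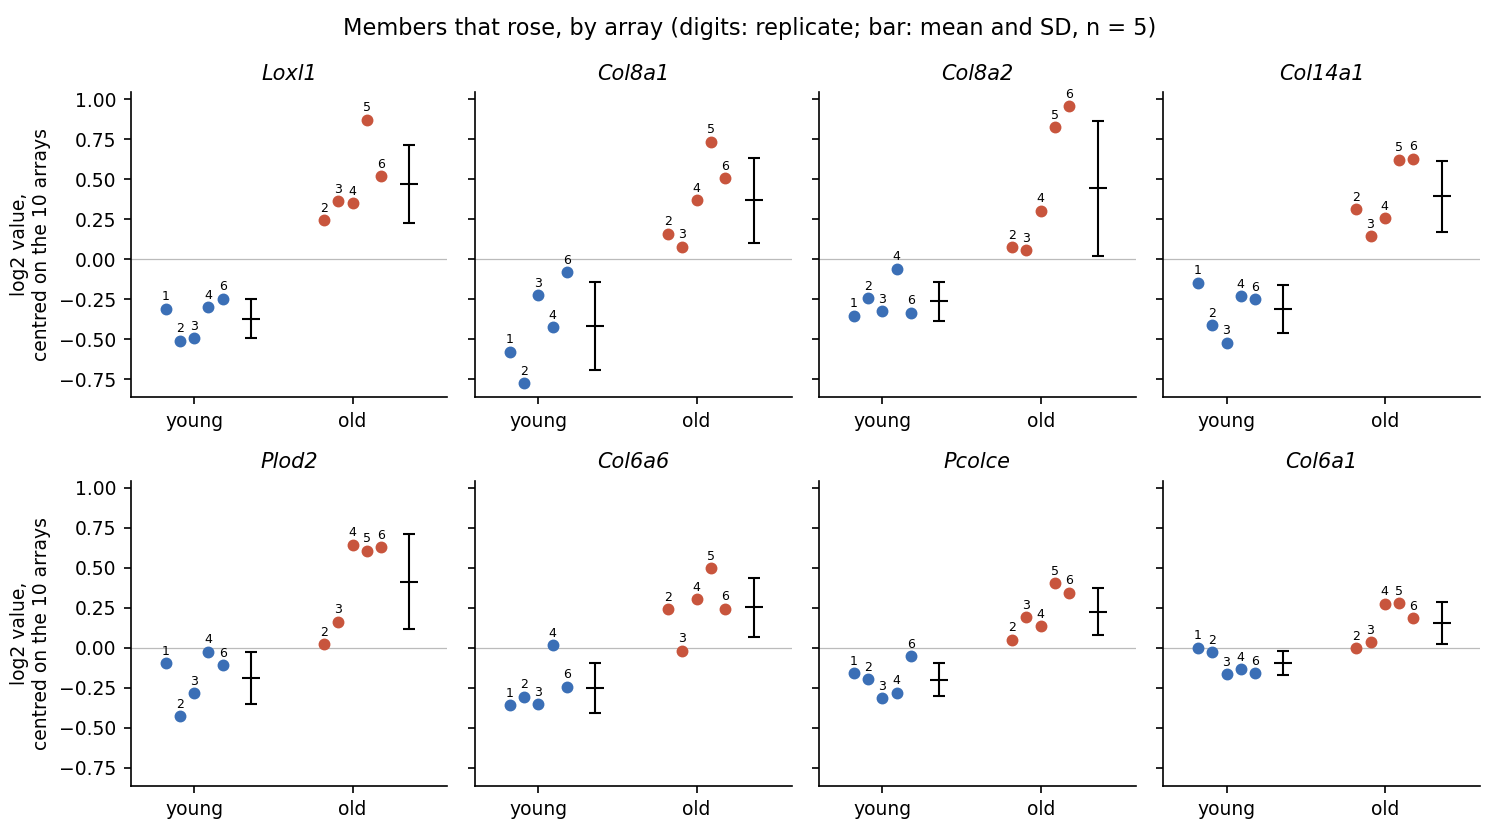
Centred log2 values of the 8 genes that rose, on each array, with the replicate number above each point and the mean and SD of each age (n = 5) as a bar. The ages are apart in 6 panels; in Col6a6 and Col6a1 an old array lies below the highest young array.

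Whether 2 members moved apart, such as chains of 1 molecule, related collagen types or enzymes of 1 step, was tested on the difference between them in each array, by an exact two-sided permutation test adjusted over 12 pairs. The smallest p that 5 arrays against 5 allow is 0.00794. Of the 12 pairs 3 passed, each at exact p = 0.00794, the smallest possible (adjusted p = 0.0317). Loxl1 minus Lox lay between -0.43 and -0.0026 in young arrays and between 0.15 and 0.53 in old, a shift of 0.59 toward Loxl1. Col6a1 minus Col6a3 lay between -0.27 and 0.038 in young and between 0.13 and 0.28 in old, a shift of 0.28. Col12a1 minus Col14a1 lay between 0.039 and 0.57 in young and between -0.64 and 0.023 in old, a shift of -0.63. In each, the 5 old arrays were on 1 side of the 5 young, which leaving out an array cannot change. Without old replicate 5 all 3 ended above the threshold (adjusted exact p = 0.0635 for each), with shifts of 0.55, 0.25 and -0.55. Col12a1 minus Col14a1 did so also without any 1 of the young arrays (0.0635), and Col6a1 minus Col6a3 also without old replicate 4 (0.0635). With the most variable probe set of each gene in place of the mean, the type VI pair (adjusted exact p = 0.0952) and the Col12a1 and Col14a1 pair (0.0794) did not pass.

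The 2 chains of type I shifted by -0.13 (adjusted exact p = 0.122), which did not pass. Neither did the type I and III chains Col1a1 minus Col3a1 (-0.18, 0.286) nor the fibrillar and basement membrane chains Col3a1 minus Col4a1 (0.19, 0.333). For Col4a1 minus Col4a2 the shift was 0.13 (0.333), and for Col5a1 minus Col5a2 -0.091 (0.333). Plod2 minus Plod1 shifted by 0.35 (adjusted exact p = 0.0952), with 4 of 5 old arrays above all young ones. Loxl2 minus Lox (0.114), Col15a1 minus Col18a1 (0.122) and P4ha1 minus P4ha2 (0.250) also missed the threshold. With 5 arrays per age, a missed threshold leaves room for a difference of the sizes given.

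**Figure D4:**
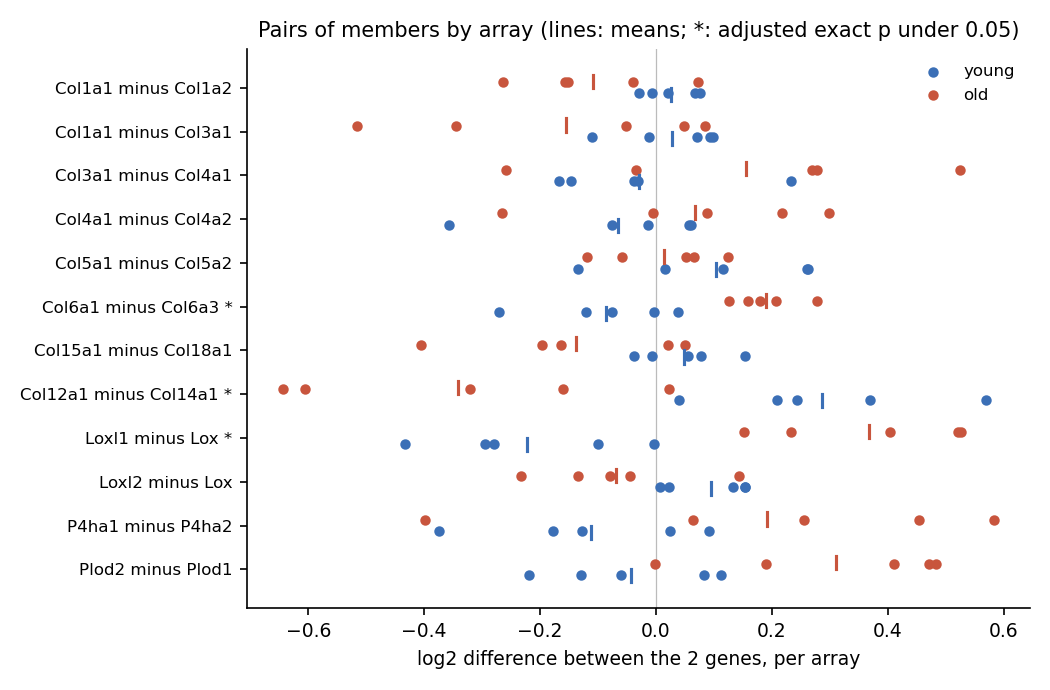
Difference on the log2 scale between the 2 genes of each of 12 pairs in each array, young in blue and old in red, with vertical lines at the means (n = 5 per age). In the 3 starred pairs, which passed an adjusted exact p of 0.05, old and young points do not overlap.

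Genes that act with the collagens but are not members were taken as 57 measured genes in 6 groups. Of these 18 rose (6.77% of all genes rose) and 1 fell (5.09%). The group of fibril assembly, proteins that bind fibrils and set their width and spacing, had 7 of 11 risen. They were Postn (2.26), Bgn (0.97), Fn1 (0.91), Dpt (0.70), Lum (0.68), Ecm2 (0.65) and Dcn (0.31), among them the small proteoglycans biglycan, lumican and decorin. Of 16 folding and secretion genes, P3h3 (0.56), Fkbp7 (0.38) and Fkbp10 (0.28) rose and Crtap (-0.20), a partner in prolyl 3-hydroxylation, fell. In breakdown and uptake 4 of 13 rose, the inhibitors Timp1 (0.72) and Timp2 (0.31) and the proteinases Ctsk (0.70) and Mmp2 (0.21). Of 5 receptors the collagen receptor gene Ddr2 rose (0.34), and 0 of 2 further genes of propeptide removal did. Upstream, 3 of 10 genes rose, the matricellular gene Ccn2 (2.09) and the growth factor genes Tgfb3 (0.69) and Tgfb2 (0.20).

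Markers of fibroblasts were measured beside the members. Of 10 fibroblast markers 7 rose and 0 fell, with a median difference of 0.42. Lum, Dpt and Dcn are on this list and on that of fibril assembly. The mean of the 10 markers lay at -0.061, -0.17, -0.30, -0.16 and -0.18 in young arrays and 0.15, -0.036, 0.35, 0.43 and 0.39 in old. Every old array was above every young one, old replicate 3 by the least. The marker mean differed by 0.43 between ages, and each shift below is a gene's own difference less this. A gene that hardly differed, such as Col10a1 (-0.0067), therefore shifted by -0.44. Relative to the marker mean, Col1a1 lay between -0.0071 and 0.25 in young and between -0.41 and 0.012 in old arrays, a shift of -0.38. Col3a1 shifted by -0.19 against the markers, Col1a2 by -0.24 and Col6a1 by -0.18. Pcolce shifted by -0.0050 and Col6a6 by 0.073. The shifts of Plod2 (0.17), Col14a1 (0.27), Col8a2 (0.28), Col8a1 (0.36) and Loxl1 (0.41) were the largest of the 8 genes that rose. These subtractions were chosen after the values were seen and carry no test.

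**Figure D5:**
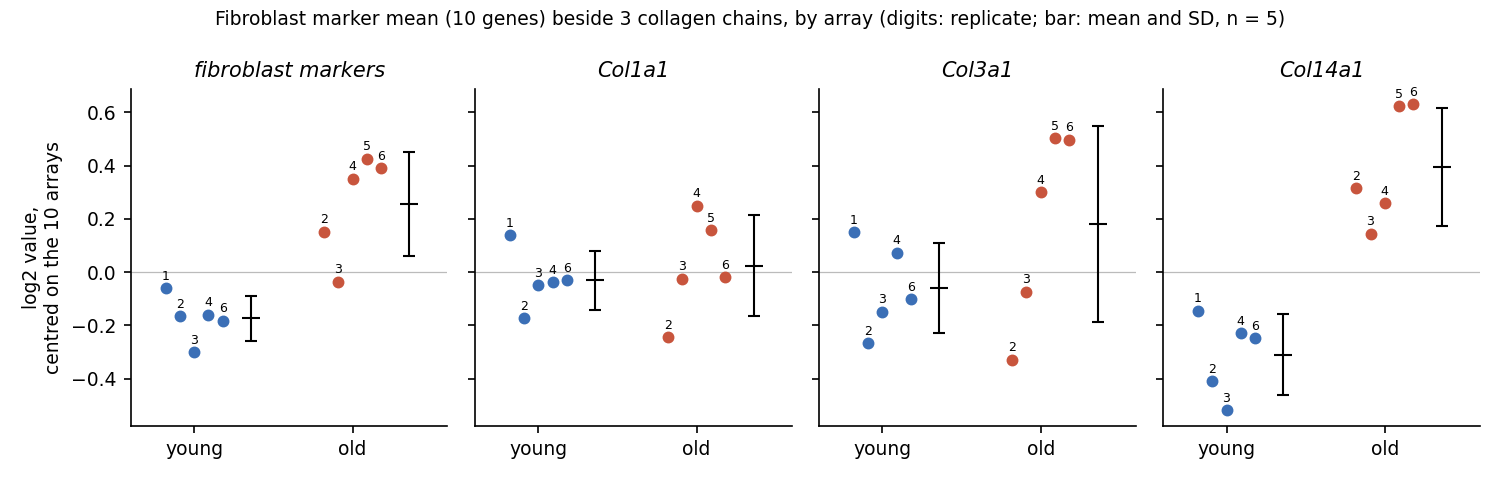
Centred log2 values of the mean of 10 fibroblast markers and of Col1a1, Col3a1 and Col14a1 on each array, with replicate numbers and the mean and SD of each age (n = 5). The markers and Col14a1 lie higher on all old arrays than on any young array, whereas the ages overlap for Col1a1 and Col3a1.

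Markers of other cell types moved with age too. Of 10 macrophage markers 4 rose, their mean lying between -0.41 and -0.017 in young and between 0.018 and 1.01 in old arrays. Of 5 myofibroblast markers 1 rose, Postn, and the mean lay between -0.57 and -0.20 in young and between -0.027 and 0.54 in old arrays. Without Postn, which the fibril assembly group also holds, the mean of the other 4 lay between -0.21 and 0.031 in young and between -0.12 and 0.28 in old arrays, and the ages overlapped. Among 8 endothelial markers 2 rose, Tek and Vwf. Of 10 smooth muscle and pericyte markers 1 rose and 1 fell, and 2 of 10 lymphocyte markers rose. Among the 9 cardiomyocyte markers 3 fell, Myh6, Ryr2 and Ckm, and all 9 had the lower mean in old hearts. Their mean lay between 0.065 and 0.22 in young and between -0.34 and -0.027 in old arrays. Of 5 atrial markers 2 rose, Nppa and Myl7, with a mean between -0.82 and -0.22 in young and between 0.14 and 0.67 in old arrays. A cartilage marker, Cytl1, rose as 1 of 5, and 0 of 4 mesothelial, 0 of 4 Schwann cell and 0 of 5 adipocyte markers did, although the adipocyte mean reached 1.35 in young replicate 2, against -0.21 to 0.11 elsewhere. Because the values are centred, no marker can be called absent. The part of cell make-up in the differences between members was not tested.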

How the data were processed

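The authors deposited a table of 31042 probe sets by 10 arrays, read as log2 values. The labels state no log base, which was inferred from the numerical step. All rows were centred to a median of 0, within 1e-06. Software, background correction and normalization: not given in the sources used here. Per the labels' protocols, RNA was extracted with TRIzol and a column, amplified over 2 cycles of cDNA synthesis and labelled with biotin. Probe sets were named from the platform annotation, with symbols updated by gene identifier to RefSeq GRCr8. Of them 20826 had 1 symbol, 436 several and 9780 none listed, and 20758 matched RefSeq.

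The mean of a gene's probe sets was fitted with limma 3.58.1 (lmFit and eBayes, R 4.3.3) over all 14217 named genes, without covariates, with Benjamini-Hochberg adjustment. The script was tested on simulated data. Pairs were tested by exact permutation with numpy 2.4.6 and scipy 1.17.1 in Python 3.11.15, tables were handled with pandas 2.3.3 and plots drawn with matplotlib 3.10.9. The members, classes and lists were chosen with earlier results of these data known. Named were all members past the threshold, a set of main chains and enzymes, members of the pairs, the 3 largest differences in each direction, and, of the other pathway genes, at most 4 called per group by smallest p. The fibril assembly group is given in full beyond that rule, since its count was named after the values were seen. Alternatives were other scalings, probe set choices, array weights, a replicate block, robust moderation, no dim probe sets and leaving out arrays. For arrays, their number limits the precision; signal over background was not analysed here. The highest correlation between 2 arrays was 0.597, and each counted as 1 sample.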

Additional observations from a re-analysis of the deposited data

Results flagged for a closer look

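In 58 groups, the 5 arrays of each age for each of 29 named genes, the most extreme array was set against Dixon's 95% critical value of 0.71 for 5 samples. Chance alone gives about 1 such array in 20 groups, and 2 were found. In young hearts the fibrillar gene Col5a3 was at 0.39 in replicate 2 and at 0.080 in the next array, a gap of 0.767 of the range. The type VI gene Col6a3 was at 0.12 in young replicate 6 and at -0.023 in the next, a gap of 0.809 of the range. Neither gene passed the test between ages.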

How the results depend on the processing

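Of 522 values of 29 named genes under these alternatives, 495 kept direction and side of the threshold, 8 lost a call, 10 gained one and 9 reversed; the causes were not tested. Fibrillar chains risen and members fallen stayed at 0 throughout. With the replicate block, 3 collagen chains rose (Col6a1, adjusted p = 0.106, and Col8a2, 0.0624, were lost) and 348 of all genes fell. Same-numbered arrays deviated together only weakly (correlations 0.0349 to 0.145, 2 of 8 arrays matching their own number best), so the numbers were not taken as pairs. Array weights gave 5 risen processing genes, adding P4ha1 (adjusted p = 0.0378) and Plod1 (0.0340), and 1 risen basement membrane chain, Col18a1 (0.0170). The most variable probe set also gave 1, Col18a1 (0.0436), with a class median of -0.051, and turned Col15a1 (-0.051), Col1a1 (-0.13), Col4a1 (-0.053), Col6a3 (0.015) and Col5a1 minus Col5a2 (0.088). Without old replicates 3 and 6 together 356 of all genes fell, P4ha1 passed (0.0476) and Col4a1 was at -0.069. Leaving out single arrays gave 3 to 5 risen processing genes (5 without old replicate 3), 0 to 1 basement membrane chains (1 without old replicate 2), 0 to 5 pairs passed (0 without old replicate 5, 5 without old replicate 2), 558 to 1059 risen and 406 to 940 fallen of all genes. It moved Col15a1 between -0.023 and 0.17, Col1a1 between -0.0019 and 0.12, and Col6a3 between -0.059 and 0.017. The dim-class filter and the 3 signal classes carry the uncertainty of the numerical step.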
